A study of Mus musculus with 12 samples.

Results

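The binding sites listed in 5 collagen genes and in Sparc were compared between the RBM25 immunoprecipitation (IP) and its control antibody (IgG) in mouse inner ear organoids. Members were taken as all rows of the 8 IP and IgG lists whose gene name was Col1a1, Col3a1, Col27a1, Col9a1, Col9a2 or Sparc. These 6 of 1000 listed genes held 91 of 4046 sites: 62 in the fibrillar collagen genes Col1a1, Col3a1 and Col27a1, 24 in the collagen IX genes Col9a1 and Col9a2, and 5 in Sparc. Merged across lists at an overlap of 1 bp, the 91 sites formed 45 regions, of which 17 were seen in 1 library and 28 in at least 2. All 91 member sites lay inside the GRCm38 interval of their own gene.

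RNA immunoprecipitation with sequencing (RIP-seq) recovers the RNA that comes down with a protein. Cochlear epithelium of newborn mice (postnatal day 1 to 2) was dissociated and expanded into organoids in Matrigel, which were treated with a control lentivirus or a lentivirus against Rbm25, which encodes an RNA-binding splicing regulator. The labels give the control organoids as WT. They give the others as Rbm-KO in genotype and as Rbm25 knockdown in treatment, and these are called depleted here. Each of the 4 groups (control IP, control IgG, depleted IP, depleted IgG) had 2 libraries, numbered 1 and 2. The labels do not say whether the 2 libraries of a group trace to different animals. The p-values here therefore reflect the spread between these libraries, which may be technical. The lentivirus is not said to be restricted to a cell type, and an organoid library pools all the cells of the culture. In such bulk samples, fewer cells of a type and less RNA per cell cannot be told apart.

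Collagens are matrix proteins made of 3 chains wound into a triple helix. Types I and III, to which Col1a1 and Col3a1 contribute, form the fibrils of connective tissue, and Col27a1 encodes a fibrillar collagen of cartilage. Collagen IX does not form fibrils by itself. It sits on the surface of collagen II fibrils in cartilage and in the tectorial membrane, the sheet over the sensory epithelium of the cochlea. Col9a1 and Col9a2 encode its α1 and α2 chains. Sparc encodes osteonectin, a secreted glycoprotein that binds collagen and calcium.

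Col9a1 has a pair of annotated transcript starts, and the upstream start gives the longer protein. One listed site lay just downstream of the second start, so the 250 bases before each start are shown for comparison, on the plus strand from RefSeq on GRCm38.p6, with matches to the motif CCAAT in capitals. The first 30 bases of that site follow, in capitals throughout.
Col9a1 upstream of the first start, chr1:24177360-24177609: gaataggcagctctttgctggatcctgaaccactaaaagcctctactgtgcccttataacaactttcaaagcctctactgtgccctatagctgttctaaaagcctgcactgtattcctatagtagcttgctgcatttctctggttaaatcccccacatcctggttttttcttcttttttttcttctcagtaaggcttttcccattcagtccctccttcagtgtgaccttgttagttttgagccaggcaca
Col9a1 upstream of the second start, chr1:24194953-24195202: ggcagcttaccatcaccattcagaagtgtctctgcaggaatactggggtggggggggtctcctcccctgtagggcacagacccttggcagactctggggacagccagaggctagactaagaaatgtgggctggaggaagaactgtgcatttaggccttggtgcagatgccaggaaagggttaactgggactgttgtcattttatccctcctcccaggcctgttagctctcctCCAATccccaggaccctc
Col9a1 start of the site, chr1:24195216-24195245: ATAAAGAGAAGAAACCCAGGTCCCCTTGGC
Searched on both strands were TATAAA, the core of the TATA box, GGGCGG, the GC box bound by Sp1, and CCAAT, the CCAAT box, which share no bases here. The second start had 1 CCAAT on the plus strand and the first start had none. Neither window held TATAAA or GGGCGG. Of 32851 windows of the same length, 33.85% held CCAAT, 12.37% TATAAA and 32.74% GGGCGG on either strand, so the match describes the letters only.

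The libraries differed in size and make-up. Control IP lists held 594 and 593 sites, control IgG lists 442 and 430, depleted IP lists 813 and 165, and depleted IgG lists 498 and 511. The lists give no read counts, so depth is unknown, and a gene without a listed site is not shown to be free of signal. The depleted IP libraries stood apart from each other: they shared 6 sites, and no member site. All 5 member sites of depleted IgG 1 and 6 of 7 of depleted IgG 2 also appeared in depleted IP 1, while both member sites of depleted IP 2 recurred in each control IP list and in no IgG list. Of all sites, 70.1% of depleted IgG 1 and 69.9% of depleted IgG 2 overlapped depleted IP 1. Of all depleted IP 2 sites, 41.8% and 37.6% overlapped control IP 1 and 2, and 3.03% to 4.85% overlapped each IgG list. Numbers and folds of sites in depleted IP are therefore given for each library. Region and gene calls between control and depleted IP take both libraries together. Rbm25 itself had 2 sites in depleted IP 1 and none in the other 7 lists, which do not measure its RNA level. Of the cell type markers looked up, 3 of 11 mesenchyme markers had a site: Twist1 in control IgG 1, Twist2 in control IgG 2 and Vim in depleted IP 1, 1 site each. The cartilage marker Sox9 (1 of 9 symbols, of which Cnmd and Lect1 name the same gene) was listed in depleted IP 1. The hair cell marker Barhl1 (1 of 10) was listed in all lists except control IP 1, control IP 2 and depleted IP 2, and 0 of 10 supporting cell markers in any.

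In control organoids the fibrillar members Col1a1, Col3a1 and Col27a1 had more sites in IgG than in IP. The collagen IX members Col9a1 and Col9a2 had more in IP than in IgG. Fibrillar members held 1 and 3 sites in control IP 1 and 2 and 21 and 23 sites in control IgG 1 and 2. Collagen IX members held 5 sites in each control IP list and 1 and 0 in the control IgG lists. Neither pair of groups overlapped. Of 649 single genes, 19.9% had more sites in both control IgG lists and 41.8% more in both control IP lists. Mean fibrillar numbers were 2 ± 1.41 in IP and 22 ± 1.41 in IgG, and mean collagen IX numbers 5 ± 0 and 0.5 ± 0.707 (SD, n = 2 each). The exact two-sided permutation test gave p = 0.33 for both differences, which is the smallest value that 2 libraries against 2 allow, so no comparison of this design can pass 0.05. Beside these numbers, the mesenchyme markers held 0 sites in each control IP list and 1 in each control IgG list, and Barhl1 likewise, and their part in the difference was not tested. Other collagen genes of these types did not all follow the members. The fibrillar Col1a2 and Col5a1 had 2 sites in each control IgG list and none in control IP. Col11a2, also fibrillar, went the other way, with 4 and 2 in IP and 1 in each IgG list. Col9a3 of collagen IX had 2 in each control list.

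**Figure D1:**
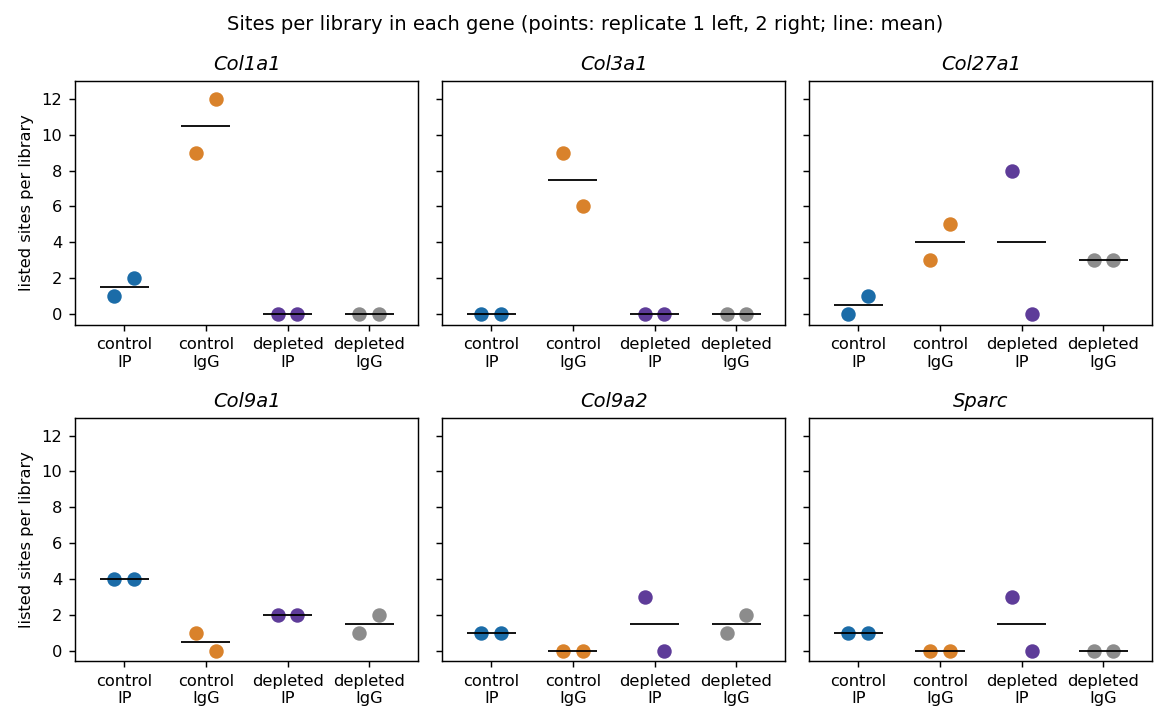
Number of listed sites per library (y axis) in each of the 6 genes, by group (x axis); each point is 1 library, replicate 1 on the left and 2 on the right, and lines are group means. Col1a1 and Col3a1 have most sites in control IgG (9 to 12 and 6 to 9) and Col9a1 in control IP (4 in each library), and the depleted IP libraries differ most for Col27a1 (8 and 0).

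Over all 6 genes, control IP listed 7 and 9 sites and control IgG 22 and 23. The means were 8 ± 1.41 and 22.5 ± 0.707 (SD, n = 2 each), a difference of -14.5 (IP minus IgG, exact two-sided permutation p = 0.33). Per 1000 sites of the list this was 11.8 and 15.2 in IP against 49.8 and 53.5 in IgG. The difference in number depended on the authors' false discovery rate. Of the IgG sites in these genes, 16 of 22 and 20 of 23 carried a rate of 100%, which 84.2% and 86.7% of all sites of those lists also did. Of the IP sites, 3 of 7 and 5 of 9 did, against 14.3% and 13% of all sites of those lists. They included every control IP site of Col1a1 and Col27a1. Without sites at 100% the means were 4 in IP and 4.5 in IgG, a difference of -0.5 (exact permutation p = 1).

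The balance between the collagen types was expressed per library as collagen IX sites minus fibrillar sites, divided by their sum, so that 1 means collagen IX only and -1 fibrillar only. Control IP 1 and 2 had 0.667 and 0.25 and control IgG 1 and 2 had -0.909 and -1, with no overlap between groups. The difference was 1.41 (exact two-sided permutation p = 0.33), and 2 when sites with a rate of 100% were left out. The latter value rested on few sites, with means of 4 member sites in IP, Sparc included, and 4.5 in IgG. Its fibrillar sites were those of Col27a1 alone in control IgG 2, and of Col1a1 and Col27a1 in control IgG 1. No Col3a1 site was left. Both control IP libraries lay on the collagen IX side and both control IgG libraries on the fibrillar side, except that control IP 2 was at 0 when only sites of 100 bp or more were kept. After depletion the value was -0.231 and 1 in IP and -0.2 and 0.143 in IgG, a difference of 0.413 (exact permutation p = 1). Without depleted IP 2 the depleted difference was -0.202, and without depleted IP 1 it was 1.03. Without sites at a rate of 100% it was 0.75, with -0.167 and 1 in IP and -0.333 in each IgG library. With sites at or above the list's median fold it was 1.75, with 0.5 and 1 in IP and -1 in each IgG library, where 1 site each was left. The groups did not overlap in either case (exact permutation p = 0.33 for both).

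The balance also depends on which collagen genes are counted. Over all 7 fibrillar collagen genes with a site and the 3 with a site among the FACIT collagens, the class of fibril-associated collagens that holds collagen IX, it was 0.167 in both control IP libraries and -0.793 and -0.867 in control IgG. This wider count was chosen after the data were seen, and its control difference was 0.997 (exact permutation p = 0.33). The depleted difference turned to -0.229 (exact permutation p = 0.33), with -0.0909 and -0.2 in IP and 0 and 0.167 in IgG. In depleted IP 2 the change came with the 3 sites of Col11a2, a fibrillar chain, beside the 2 of Col9a1.

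By gene, Col9a1, Col9a2 and Sparc had more sites in both control IP lists than in either IgG list, as did 271 of 649 genes with a control site (41.8%). Col1a1, Col3a1 and Col27a1 had more in both control IgG lists, as did 129 of 649 genes (19.9%). The 3 and 3 of 6 members are to be read against those shares.

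Regions are the same sites merged, so the count by region repeats the split and is not separate support for it. Of 35 member regions in control organoids, 6 (17.1%) were listed by both IP libraries and by neither IgG library, against 39.8% of all 915 control regions. They were 4 of 5 in Col9a1, 1 of 1 in Col9a2 and 1 of 1 in Sparc, and 0 of 28 in the fibrillar genes. The reverse, both IgG and neither IP, was met by 14 of 35 member regions (40%), against 18.9% of all regions. They were 6 of 14 in Col1a1, 6 of 9 in Col3a1 and 2 of 5 in Col27a1, and 0 of 6 in collagen IX. The IP count was 0 when sites under their own list's median fold were dropped. The IgG count was 3 when sites with a rate of 100% were left out.

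Col1a1 (chr11:94936224-94953042) encodes the α1 chain of collagen I. Control IP 1 and 2 listed 1 and 2 sites, control IgG 1 and 2 listed 9 and 12, and all 4 depleted libraries 0. The order was control IgG (10.5 ± 2.12), control IP (1.5 ± 0.707) and both depleted groups (0 ± 0; SD, n = 2 each), and each of these 3 levels was apart from the next. Of 649 genes, 19.9% had more sites in both control IgG than in either control IP list. Of 892 genes, 29.7% had more in both control IP than in either depleted IP list. No such share was computed for control IP against depleted IgG. All control IP sites of Col1a1 carried a false discovery rate of 100%. Col1a1 had the most sites of any gene in control IgG 2, and shared that place with Col3a1 in control IgG 1.

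The 14 regions of Col1a1 spread from the beginning to near the end of the gene. The region nearest the start, chr11:94936230-94936444, had the authors' fold of 192.97 and 298.54 in control IgG 1 and 2, ranks 55 of 442 and 39 of 430 in their lists. The same region was listed in control IP 2 at a fold of 37.05, rank 495 of 593. Folds were compared by their rank within each list, since the median fold was 241 and 323 in the control IP lists but 35.2 and 33.7 in the control IgG lists. A second region, chr11:94950291-94950573, was shared in the same way, with folds of 271.83 and 143.28 in IgG and 14.17 in control IP 2. The highest fold of Col1a1 in control IgG 1 was 276.88, at chr11:94946275-94946382, where control IgG 2 had 269.35. The single site of control IP 1, chr11:94950709-94950853 (fold 20, rank 517 of 594), overlapped no IgG site. Thus 0 of 14 regions were in both IP lists, and the IP sites of the 2 libraries lay at different places in the gene.

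Col3a1 (chr1:45311538-45349706, plus strand) encodes the α1 chain of collagen III. It had 9 and 6 sites in control IgG 1 and 2 and none in the other 6 libraries. The control IgG mean of 7.5 ± 2.12 (SD, n = 2) stood apart from the 3 other groups, which were all at 0. Of 649 genes, 19.9% had more sites in both control IgG than in either control IP list. Of 499 genes, 11.8% had more in both control IgG than in either depleted IgG list. All 6 regions of control IgG 2 were also in control IgG 1, 5 of them with the same boundaries. The highest folds were 131.9 and 158.65, at chr1:45342123-45342230, ranks 79 of 442 and 63 of 430. The lowest were 22.61 and 17.79 at chr1:45348601-45348878, close to the 3′ end of the gene. All 15 sites carried a false discovery rate of 100%.

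**Figure D2:**
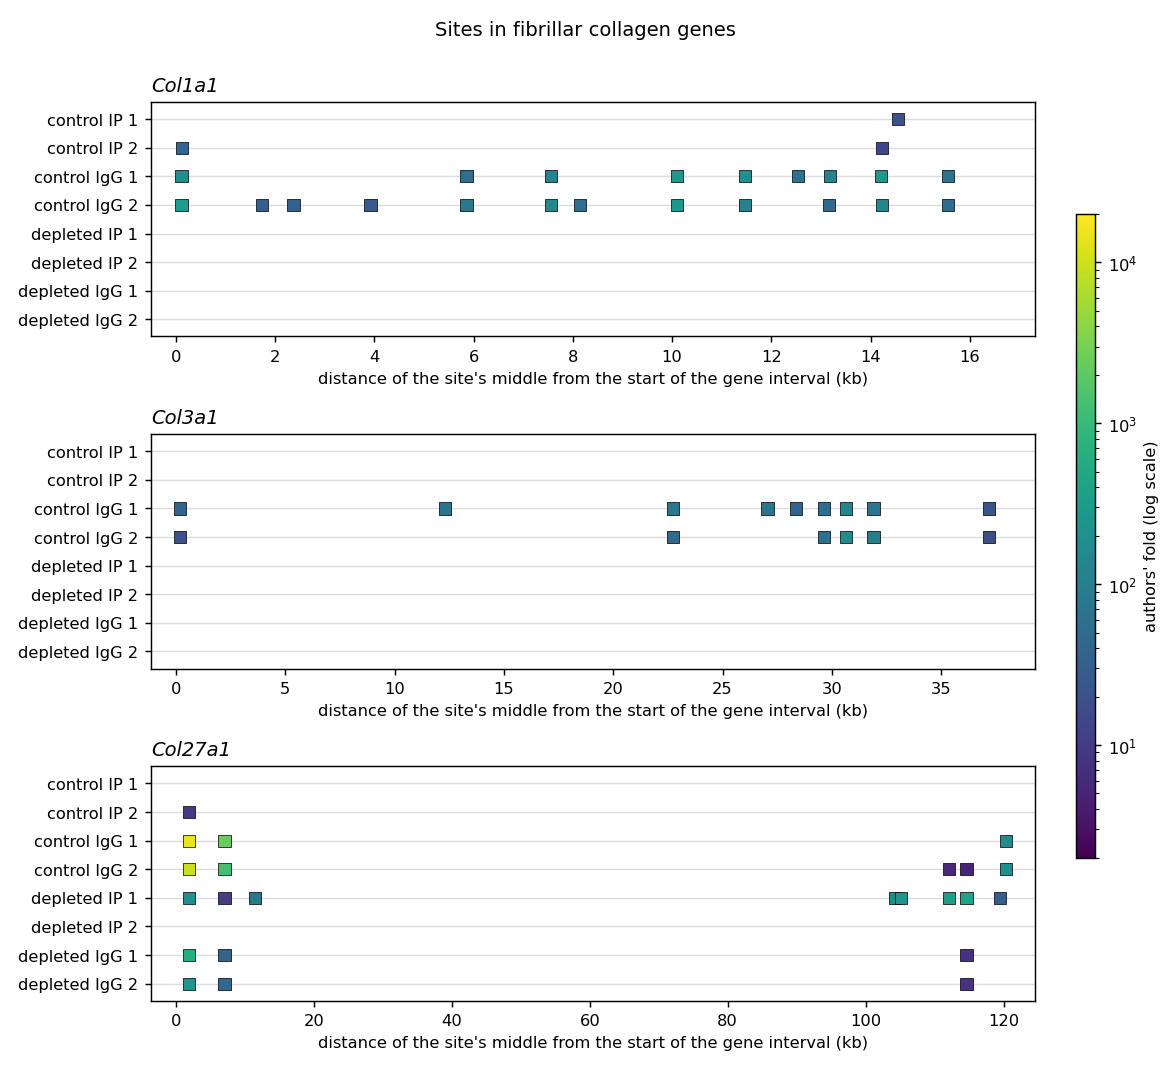
Position of each listed site in Col1a1, Col3a1 and Col27a1 (x axis, distance of the site's middle from the start of the gene interval in kb) in each library (y axis); colour is the authors' fold on a log scale. Col1a1 and Col3a1 are empty in the 4 depleted libraries, and the sites of Col27a1 lie near its ends.

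Col27a1 (chr4:63214009-63334991, plus strand) encodes the α1 chain of collagen XXVII. Control IP 1 and 2 listed 0 and 1 sites, control IgG 1 and 2 listed 3 and 5, depleted IP 1 and 2 listed 8 and 0, and each depleted IgG library listed 3. Control IgG (4 ± 1.41) and depleted IgG (3 ± 0) were not apart from each other, both were apart from control IP (0.5 ± 0.707), and depleted IP (4 ± 5.66; SD, n = 2 each) overlapped every other group. Control IgG was above control IP in this way for 19.9% of 649 genes. For depleted IgG against control IP no such share was computed. The 8 sites were the most of any gene in depleted IP 1.

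The region chr4:63215810-63215881 was listed with the same boundaries in 6 of 8 libraries. Its fold was 14765 and 9322 in control IgG 1 and 2, ranks 6 of 442 and 9 of 430, the highest of all member sites there. In depleted IgG it was 619.07 and 246.88, ranks 31 of 498 and 67 of 511. In the IP libraries it stood lower, at 10 and rank 560 of 593 in control IP 2, and at 191.01 and rank 501 of 813 in depleted IP 1. Control IP 1 and depleted IP 2 did not list it. The next region, chr4:63221016-63221084, was in all 4 IgG lists (2325.4, 1259.44, 35.96 and 42.33) and in depleted IP 1 at 10.13, rank 782 of 813. These were the only 2 of 31 member IgG regions found in all 4 IgG lists, against 38.7% of all 701 IgG regions.

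The other sites of Col27a1 lay in the last part of the gene, except 1 of depleted IP 1. The region chr4:63334266-63334535 was listed in control IgG alone (156.47 and 187.78). The region chr4:63328532-63328688 had a fold of 425.74 in depleted IP 1, and of 5.32, 7.41 and 7.43 in control IgG 2, depleted IgG 1 and depleted IgG 2. Of the 8 sites of depleted IP 1, 4 overlapped no site of any other list, and a further 1 was shared with control IgG 2 alone.

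Col9a1 (chr1:24177589-24252738, plus strand) had 4 sites in each control IP list and 2 in each depleted IP list. Control IgG 1 and 2 listed 1 and 0, and depleted IgG 1 and 2 listed 1 and 2. The order was control IP (4 ± 0), depleted IP (2 ± 0), depleted IgG (1.5 ± 0.707) and control IgG (0.5 ± 0.707; SD, n = 2 each). Control IP was apart from depleted IP in number, as it was for 29.7% of 892 genes. These numbers are not scaled to list length, which was 594 and 593 in control IP and 813 and 165 in depleted IP. Depleted IP was not apart from depleted IgG, nor depleted IgG from control IgG. No gene had more sites in control IP 1 or control IP 2, where 2.56% and 2.31% of genes had 3 or more. The fibrillar Col11a2 also had 4 in control IP 1, and 2 in control IP 2.

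The 4 control IP sites had identical boundaries in both libraries, and none was in a control IgG list. From 5′ to 3′, chr1:24202041-24202067 had folds of 9.17 and 14.38, chr1:24210373-24210421 of 4.07 and 2.88, chr1:24231456-24231486 of 32.5 and 72.04, and chr1:24237128-24237271 of 40.25 and 74.82. These were low in their lists: the highest ranks were 471 of 594 and 453 of 593. The 2 sites nearest the 5′ end had a false discovery rate of 100% in both libraries, and the 2 others had 16.21% in control IP 1 and 17.35% in control IP 2. The site nearest the 3′ end was also listed in depleted IgG 2, at 5.62.

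After depletion the sites of Col9a1 in IP 1 and IP 2 lay at different places. Depleted IP 2 listed 2 of the control IP sites, chr1:24202041-24202067 at 5641 (rank 33 of 165) and chr1:24210373-24210421 at 1708 (rank 77 of 165). These are the 2 sites with the lowest folds in control IP. Depleted IP 1 listed none of the 4. It had chr1:24195215-24195457, which starts 12 bases after the second transcript start, at 1555 (rank 188 of 813), and chr1:24251968-24252244 near the 3′ end at 15.56.

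The site at the second start was otherwise an IgG site. It was listed at chr1:24195216-24195457, 13 bases after that start, in control IgG 1 (10.64), depleted IgG 1 (19.45) and depleted IgG 2 (41.81). Its first bases are those printed above. The authors assigned it to the transcript NM_001290691 and all other Col9a1 sites to NM_007740. No list held a site between the first start and the second.

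Col9a2 (chr4:121039566-121055325, plus strand) had 1 site in each control IP list and none in control IgG. Depleted IP 1 and 2 listed 3 and 0, and depleted IgG 1 and 2 listed 1 and 2. Depleted IP and depleted IgG (1.5 ± 2.12 and 1.5 ± 0.707), control IP (1 ± 0) and control IgG (0 ± 0; SD, n = 2 each) followed in that order. Among neighbours in that order, control IP was apart from control IgG, as it was in that direction for 41.8% of 649 genes, and the others overlapped.

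The control IP site lay at the 3′ end, at chr4:121054936-121055172 with a fold of 33.86 in control IP 1 and, ending 1 base later, 40.47 in control IP 2. Depleted IP 1 had a site overlapping it, chr4:121054743-121055037, at 13.02. The IgG sites lay at the other end of the gene. At chr4:121040965-121041034 the fold was 9.92 and 7.8 in depleted IgG 1 and 2 and 734.39 in depleted IP 1. At chr4:121039641-121039786 it was 9.29 in depleted IgG 2 and 418.5 in depleted IP 1. Depleted IP 1 thus listed the control IP place and both IgG places, and depleted IP 2 listed none.

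**Figure D3:**
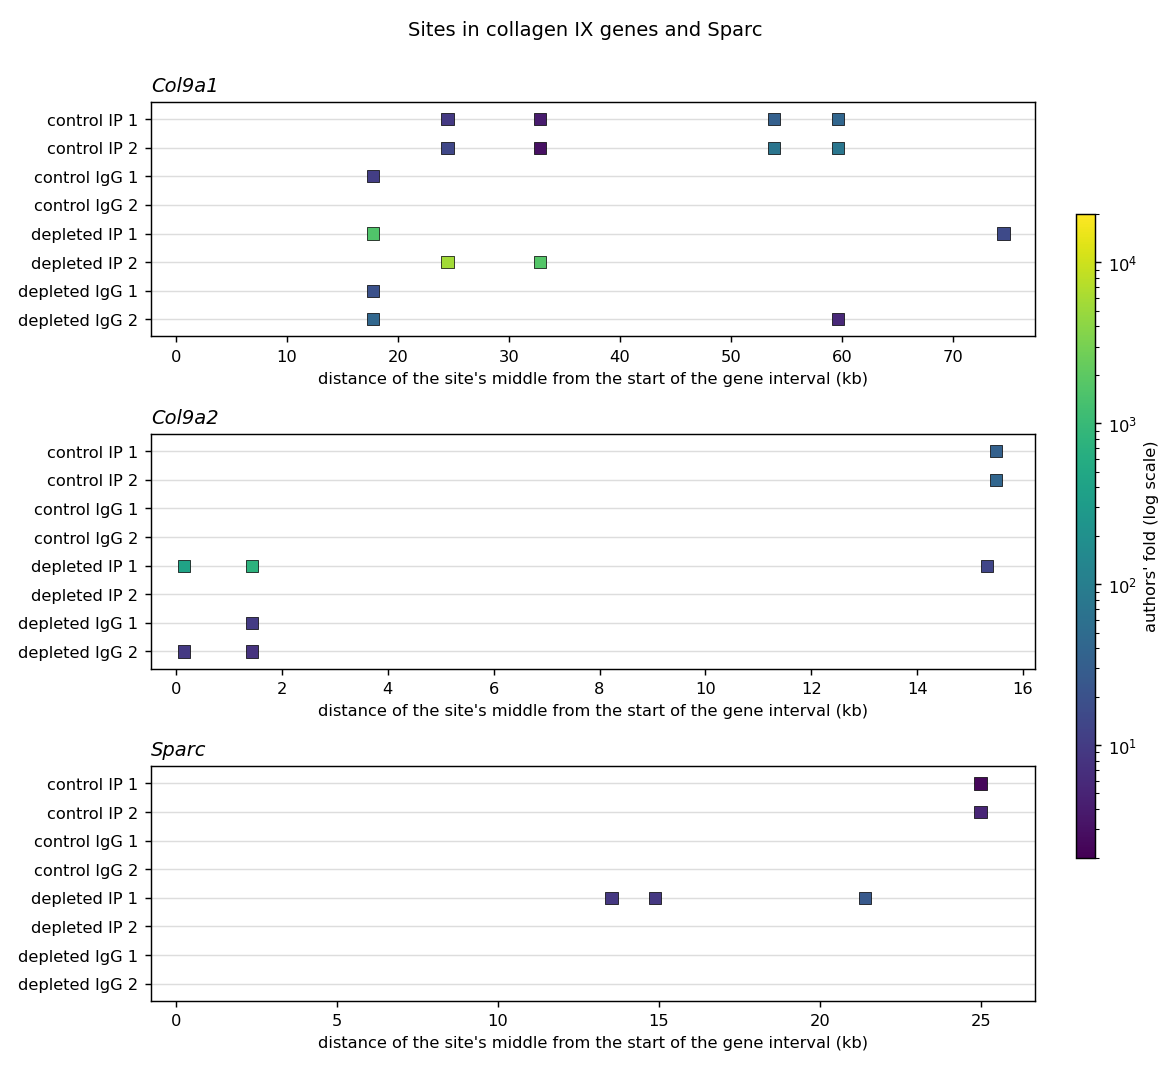
Position of each listed site in Col9a1, Col9a2 and Sparc (x axis, distance of the site's middle from the start of the gene in kb, along the direction of transcription) in each library (y axis); colour is the authors' fold on a log scale. In Col9a1 the 4 control IP sites line up between the replicates, and 2 of them recur in depleted IP 2 with folds of 5641 and 1708.

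Sparc (chr11:55394159-55420080, minus strand) had 1 site in each control IP list, 3 in depleted IP 1, 0 in depleted IP 2 and none in any IgG list. The control IP sites, chr11:55394960-55395223 and chr11:55394956-55395222, overlapped at the 3′ end of the gene. Their folds of 2.34 and 5.19 were among the lowest of their lists, at rank 593 of 594 and 586 of 593. The 3 sites of depleted IP 1 lay elsewhere in the gene, at chr11:55398666-55398696 (25.31), chr11:55405180-55405210 (8.83) and chr11:55406510-55406597 (9.01). No Sparc region was listed in both control and depleted organoids. Each of the 5 collagen genes had at least 1 IgG site, and Sparc had none among its 5 sites.

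Ranked within each list by the authors' fold, member sites stood low in control IP and high in control IgG. None of 7 and 9 control IP sites, and 19 of 22 and 17 of 23 control IgG sites, were above their list's median fold. In depleted IP 1 it was 4 of 16, in depleted IP 2 both of 2, and in depleted IgG 1 of 5 and 1 of 7. The median fold of depleted IP 2 was 1386 and of depleted IP 1 was 347, and those of the depleted IgG lists were 55.6 and 44.6.

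**Figure D4:**
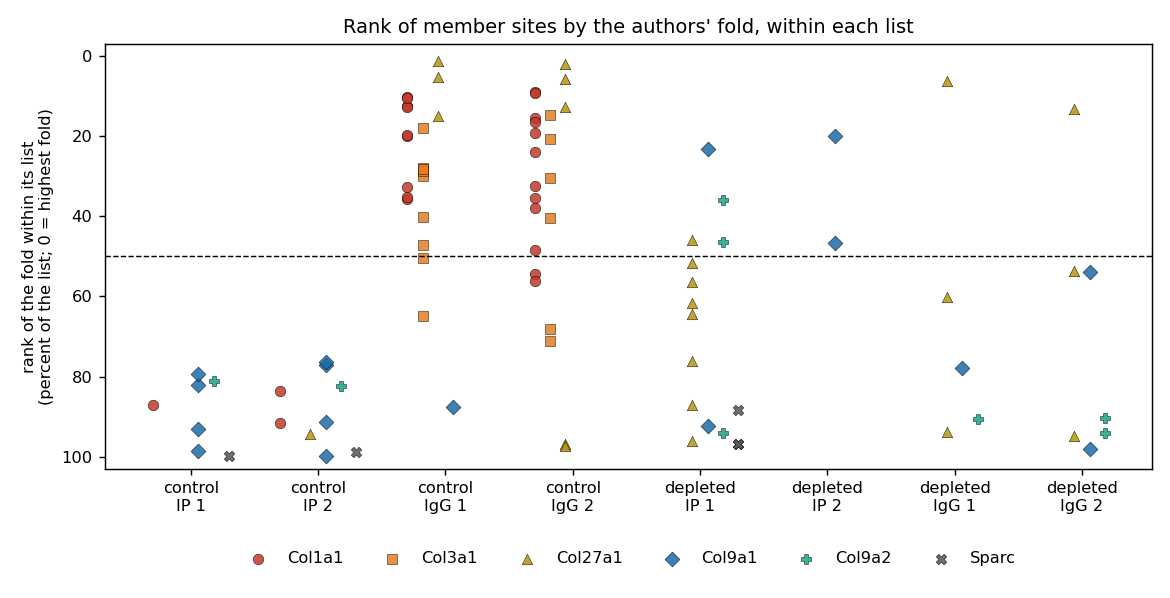
Rank of each member site by the authors' fold, as a percent of its own list (y axis, 0 at the top is the highest fold), in each library (x axis); symbols mark the gene and the dashed line the middle of the list. All control IP sites lie under the line, while 19 of 22 and 17 of 23 control IgG sites have folds above their list's median.

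Between control and depleted IgG, the members together had fewer sites in depleted IgG. They had 22 and 23 sites in control IgG and 5 and 7 in depleted IgG, with means of 22.5 ± 0.707 and 6 ± 1.41 (SD, n = 2 each). The groups did not overlap, with a difference of -16.5 (depleted minus control, exact two-sided permutation p = 0.33). It was -1.5 (exact permutation p = 1) without sites at a false discovery rate of 100%. Fibrillar sites numbered 21 and 23 in control and 3 and 3 in depleted IgG, a difference of -19, and collagen IX sites 1 and 0 against 2 and 4, a difference of 2.5 (exact permutation p = 0.33 for both). Of 5 members with an IgG site, 2 (Col1a1 and Col3a1) had more sites in both control IgG lists, as did 11.8% of 499 genes. Only 1 (Col9a2) had more in both depleted IgG lists, against 25.3% of genes, so that direction was not above the general share. Of 31 IgG member regions, 15 were in both control and in no depleted list (8 of 13 in Col1a1, 6 of 9 in Col3a1, 1 of 5 in Col27a1), against 11.6% of all 701. The region chr4:121040965-121041034 of Col9a2 was the 1 that was in both depleted and in no control list, against 21% of all. The mesenchyme markers Twist1 and Twist2 were listed, each in 1 control IgG library, and in no depleted IgG library; their part in the result was not tested.

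Between control and depleted IP, the number of member sites did not separate the groups. The means were 8 ± 1.41 in control and 9 ± 9.9 in depleted IP (SD, n = 2 each), a difference of 1 (exact two-sided permutation p = 1). In number, depleted IP 1 with 16 sites was above both control libraries and depleted IP 2 with 2 was below both. Their lists differed in length, with 813 and 165 sites. Per 1000 sites of the list, control IP 1 and 2 had 11.8 and 15.2, and depleted IP 1 and 2 had 19.7 and 12.1. On that scale depleted IP 2 lay between the control libraries. Without depleted IP 1 the difference in number was -6, and without depleted IP 2 it was 8, and neither is scaled to list length. Col1a1 and Col9a1 had more sites in both control IP lists than in either depleted IP list, as did 29.7% of 892 genes, and no member had more in both depleted IP lists (0.673% of genes). Of 24 member regions of the IP lists, 3 were in both control and in no depleted list, 2 in Col9a1 and 1 in Sparc, against 27.9% of 1375 regions. None of the 24 was in both depleted and in no control list (0.145% of all regions).

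In depleted organoids, the numbers of member sites in IP and IgG overlapped. So did the numbers per 1000 sites of the list (19.7 and 12.1 in IP, 10 and 13.7 in IgG). Member sites numbered 16 and 2 in IP and 5 and 7 in IgG, a difference of 3 (exact two-sided permutation p = 1) that was -4 without depleted IP 1, 10 without depleted IP 2 and 5.5 without sites at a rate of 100% (exact permutation p = 1). At or above the list's median fold, 4 and 2 sites in IP stood against 1 in each IgG list, a difference of 2 with no overlap (exact permutation p = 0.33). Of 19 member regions, 0 were in both IP and in no IgG list (0.266% of 1127 regions) and 0 in both IgG and in no IP list (12.3% of all). With depleted IP 1 alone there were 10 regions outside IgG, and with depleted IP 2 alone there were 2, both in Col9a1. No member had more sites in both IP lists than in either IgG list (1.09% of 735 genes), or the reverse (14.6%).

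Exons of the triple helix of fibrillar collagens are known to be multiples of 9 bases long. Of 39 distinct fibrillar sites, 16 (41.0%) had a width divisible by 9, against 239 of 2032 distinct sites of all genes (11.8%), and 6 were 108 bp wide, against 16 of all genes. Widths divisible by 9 were 8 of 20 in Col1a1, 4 of 10 in Col3a1 and 4 of 9 in Col27a1. Col9a1 had 3 of 7 (42.9%), while Col9a2 and Sparc had 0 of 5 each. In the other collagen genes it was 6 of 26 (23.1%). Sites of 1 gene share their source, so these shares carry no test. Whether a site lies in an exon was not analysed here.

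Of the lists of other matrix genes, 18 genes had a site. They were 4 other fibrillar collagens (Col1a2, Col2a1, Col5a1 and Col11a2), Col9a3, Col4a2, 5 of 33 gene symbols of collagen processing, 2 of 9 of tectorial and otic matrix and 5 of 41 glycoproteins and proteoglycans. The 33 symbols name fewer genes, since some genes were looked up under an old and a new symbol. More sites in both control IgG lists than in either control IP list were found for 7 of 13: Col1a2, Col5a1, Fn1 (fibronectin), Hspg2 (perlecan), Vcan (versican), Mia3 (a collagen export receptor) and Otog (otogelin of the tectorial membrane). The reverse was found for Col11a2 and P4hb, a subunit of the enzyme that hydroxylates collagen prolines. Of all genes, 19.9% and 41.8% had these patterns.

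Col1a2, the partner chain of Col1a1 in collagen I, had 2 sites in each control IgG list and 2 in depleted IP 1, and none in the other 5 lists. Col5a1 had 2 sites in each control IgG list and none elsewhere. Both were thus listed in control IgG and not in depleted IgG, as Col1a1 and Col3a1 were, together with Fn1, Otog and Vcan (5 of 14, against 11.8% of all genes). The reverse, more sites in both depleted IgG lists than in either control IgG list, was found for Col11a2, Col4a2, Col9a3 and Lamb2. These were 4 of 14, against 25.3% of all genes. Col9a3, the third chain of collagen IX, had 2 sites in each control list, IP and IgG alike, 5 in depleted IP 1, 0 in depleted IP 2 and 3 in each depleted IgG list. Col11a2, a chain of collagen XI, had 4 and 2 sites in control IP 1 and 2, 1 in each control IgG list, 3 in depleted IP 2, 0 in depleted IP 1 and 2 in each depleted IgG list. Col2a1, whose fibrils carry collagen IX, was listed in depleted IP 1 alone, with 2 sites.

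**Figure D5:**
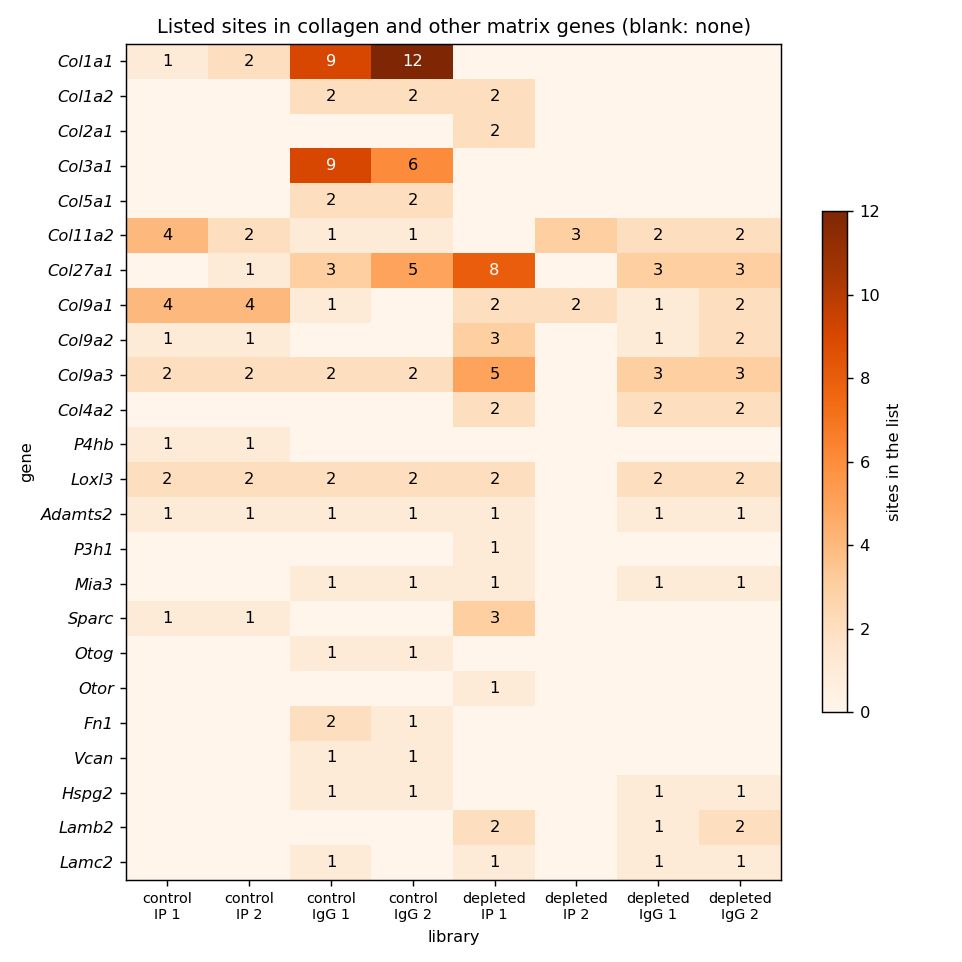
Number of listed sites (cell value and colour; blank is none) for each collagen and other matrix gene with a site (y axis) in each library (x axis). Col1a1, Col1a2, Col3a1 and Col5a1 fill the control IgG columns, and Col9a1 and Col11a2 have their highest control numbers in IP.

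Genes with the nearest pattern were sought among those listed in the same libraries, by the sum over the 8 libraries of the absolute difference in number of sites. For Col9a2 these were Tgfbi (sum 2), Ice2 (3) and Rsph3a (3), and for Sparc 19 genes came within 4, the nearest at 1. No gene came within 4 of Col1a1 (smallest sum 19), Col3a1 (7) or Col27a1 (16), and no other gene was listed in the same libraries as Col9a1.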

How the data were processed

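The members, gene lists and comparisons were chosen with earlier results of these data known. The tools cutadapt 1.9.3 and HISAT2 2.0.4 and the build mm8 are named in the submitters' processing notes. The deposited coordinates fit GRCm38 instead: 97.8% of 3979 sites lay inside their gene on GRCm38.p6. Each deposited list holds sites of 1 library assigned to mRNAs, with peak names of the MACS kind. The caller's version, and what it took as background, is not given in the sources used here. Per the file headers, the authors give each site a fold enrichment (a ratio), a score (−10 times log10 of p), a false discovery rate in percent and a width. These values are the authors' and were used to describe and rank sites within a list. Starts counted from 0 in the lists are printed from 1.

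The deposited lists labelled Input were the IP lists without sites overlapping IgG (0 exceptions) and were not used; they keep 7 of 7, 6 of 9, 11 of 16 and 2 of 2 member sites.

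Sites were counted per gene and library in Python 3.11.15 (pandas 2.3.3, numpy 2.4.6) and merged into regions at 1 bp, tested on simulated data. Counts were compared by exact two-sided permutation over libraries. A gene or region was called where both libraries of 1 group exceeded, or held it without, both of the other. Named genes were the members, all genes of the matrix lists with a site, and at most 3 genes of the nearest pattern within a sum of 4 (those of Sparc are not reported here). Same-numbered IP and IgG libraries were taken as 1 culture from the study's description; control and depleted libraries share only a number. Alternatives were filters on rate, width (100 bp) and fold, an overlap of 50%, list length, single sites of equal fold and score, pairing, each replicate left out and, added after the data were seen, the balance over all listed fibrillar and FACIT collagens.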

Additional observations from a re-analysis of the deposited data

How the results depend on the processing

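Of 58 alternatives tried on the tested differences, 52 kept direction and stayed above 0.05, and of 45 on the region counts 33 stayed within 1.5 times. Because 2 libraries against 2 cannot pass 0.05, this says nothing of stability in significance. The member-site difference between depleted IP and control IP (1) was -0.5 with sites of 100 bp or more and ranged from -6 to 8 with a replicate left out, at 0 without control IP 1. That between depleted IP and IgG (3) ranged from -4 to 10, and their difference in collagen balance (0.413) from -0.202 to 1.03, in both cases by leaving out depleted IP 1 or 2. That balance was 0.75 without rates of 100%, 1.75 at the median fold and -0.229 over all listed fibrillar and FACIT collagen genes, a setting chosen after seeing the data. The cause was not tested. Leaving out a replicate gave -15.5 to -13.5 for control IP minus IgG (-14.5) and -17.5 to -15.5 for the IgG comparison (-16.5).

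Regions in both control IP and no IgG (6) numbered 3 with sites of 100 bp or more and 0 at the median fold. Those in both control IgG and no IP (14) numbered 3 without rates of 100%, 8 with sites of 100 bp or more, and 14 to 20 with a replicate left out. Those in both depleted IP and no IgG (0) ranged from 0 to 10 with a replicate left out. The reverse (0) was 1 without rates of 100% and 1 at the median fold, and ranged from 0 to 5. Those in all 4 IgG lists (2) were 0 with sites of 100 bp or more and 1 at the median fold. The filters leave fewer sites by construction. With same-numbered libraries as pairs (replicate block), the exact sign-flip p was 0.5, its smallest, for control IP minus IgG and for their collagen balance. It was 1 for depleted IP minus IgG and for their collagen balance, and the pairing changed no call there. Pairs by number gave 0.5 for the IgG comparison and 1 for depleted IP minus control IP. Control and depleted libraries share only a number, so those pairs check nothing. They are still counted among the alternatives above. The balance could not be computed for control libraries at the median fold, since no IP site was left, nor for depleted ones with sites of 100 bp or more. No depth was known, so limits of detection could not be given.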
